A study of Caenorhabditis briggsae with 6 samples.

Results

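A group of 72 genes was already expressed in wild-type Caenorhabditis briggsae L3 larvae and was at least 4 times higher in every Cbr-ivph-3 mutant library. The genes were chosen from the counts themselves. A count was divided by its library total and multiplied by 1000000 to give CPM, a gene had to reach 2 CPM in each wild-type library, and its lowest mutant CPM had to be at least 4 times its highest wild-type CPM. Of 23169 genes counted, 11130 reached 2 CPM in each wild-type library, and 74 of these (0.665%) met the limit of 4. Cbr-parp-1 and Cbr-msh-5 were then left out, so 72 genes remained. Because this contrast chose the genes, the levels and fold changes given for them below are a description and carry no test.

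RNA was taken from whole hermaphrodites at the L3 stage, grown at 20 °C on E. coli OP50 after bleach synchronization and staged by the first vulval precursor cell divisions. The mutant animals were strain PS9217, which carries Cbr-ivph-3(sy5216), a premature stop allele. The comparison strain was AF16, the wild type of the species. Each genotype had 3 independent biological replicates, giving 6 libraries, and 1 allele in 1 strain stands for the mutant, so any other difference between the strains cannot be told apart from the mutation. In whole animals, a change in the number of cells of a type and a change in RNA per cell cannot be told apart either.

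Cbr-ivph-3 encodes a protein with a LIN-15B domain, and mutants were found through extra vulval induction. In C. elegans, LIN-15B belongs to the synMuv B group of chromatin regulators, which is known for keeping germline genes off in somatic cells. Several of the symbols among the 72 genes belong to germ cells in C. elegans, others to mitochondria, to defence against microbes, or to enzymes of detoxification and lipid metabolism.

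The libraries held 22817581 to 30865944 counts in Cbr-ivph-3 and 24625819 to 25760385 in AF16, and no member had fewer than 52 counts in an AF16 library. The transcript of Cbr-ivph-3 itself was at 21.4, 24.6 and 24.2 CPM in the mutant and 29.97 to 33.3 CPM in AF16, lower in each mutant library. Cbr-ivph-3 replicate 1 stood apart from its own genotype. The mean chi-square per gene was 203 and 232 between replicate 1 and mutant replicates 2 and 3, against 2.51 between mutant replicates 2 and 3 and 7.95 to 32.3 among AF16 pairs, and it was 158 to 202 between replicate 1 and the AF16 libraries. Mutant replicates 2 and 3 were thus closer to each other than any AF16 pair, although still further apart than sampling noise. All 5 germline markers checked were higher in mutant replicate 1 than in replicates 2 and 3, with a summed level of 840, 410 and 414 CPM in mutant replicates 1, 2 and 3 and 301, 280 and 308 CPM in AF16. In replicates 2 and 3 the sum was above AF16 through Cbr-gld-1 alone (272 and 275 CPM, against 76.02 to 82.1 CPM in AF16), and Cbr-glp-1, Cbr-pgl-1, Cbr-glh-4 and Cbr-rec-8 were each lower there than in every AF16 library. The 5 oocyte and eggshell markers summed to 157, 42.6 and 44.7 CPM in the mutant and 63.2, 64.9 and 62.9 CPM in AF16. The yolk gene Cbr-vit-6 was at 57.2, 1.36 and 2.01 CPM in the mutant and 4.51, 4.12 and 5.85 CPM in AF16. Summed markers of body wall and pharyngeal muscle (3091 to 5096 CPM in the mutant, 6758 to 7603 CPM in AF16), of intestine (1180 to 1636 and 1898 to 2149 CPM), of hypodermis and cuticle (2264 to 5730 and 3339 to 4053 CPM) and of neurons (337 to 638 and 449 to 471 CPM) were present in all 6 libraries. Among mutant libraries, the muscle, intestine and hypodermis sums were highest in replicate 1 (hypodermis 5730, against 2264 and 2376 CPM). There 4, 3 and 3 of their 5 markers lay above the mean of replicates 2 and 3. The neuron sum was lowest in replicate 1 (337, against 638 and 621 CPM), and all 5 of its markers lay below that mean. The 5 sperm markers summed to 40.6 to 79.9 CPM in the mutant and 24.4 to 26.7 CPM in AF16, most of it from Cbr-spe-5 (39.7 to 59.7 and 23.4 to 25.7 CPM), while the other sperm markers were under 1 CPM in every library except mutant replicate 1, and Cbr-spe-27 was at 0 in all but that library. The part of these differences in the results below was not tested, and values without mutant replicate 1 are given where they matter.

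Together the 72 genes made up a small part of each library. CPM are not corrected for gene length, so an order of CPM between genes is an order of reads and not of molecules. Their counts were 0.854%, 0.683% and 0.675% of the library in Cbr-ivph-3 replicates 1, 2 and 3 and 0.0879%, 0.0883% and 0.0904% in AF16. The median member stood at 60.2, 59.3 and 57.7 CPM in the mutant libraries and at 6.58, 6.35 and 7.12 CPM in the AF16 libraries. In AF16 most members were weakly expressed, and 52 of the 72 averaged under 10 CPM, whereas 21 averaged at least 100 CPM in the mutant. Mean levels ran between 15.9 CPM (Cbr-vrp-1) and 723 CPM (Cbr-ucr-2.3) in Cbr-ivph-3 and between 2.09 CPM (Cbr-dod-24) and 106 CPM (Cbr-ucr-2.3) in AF16.

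**Figure D1:**
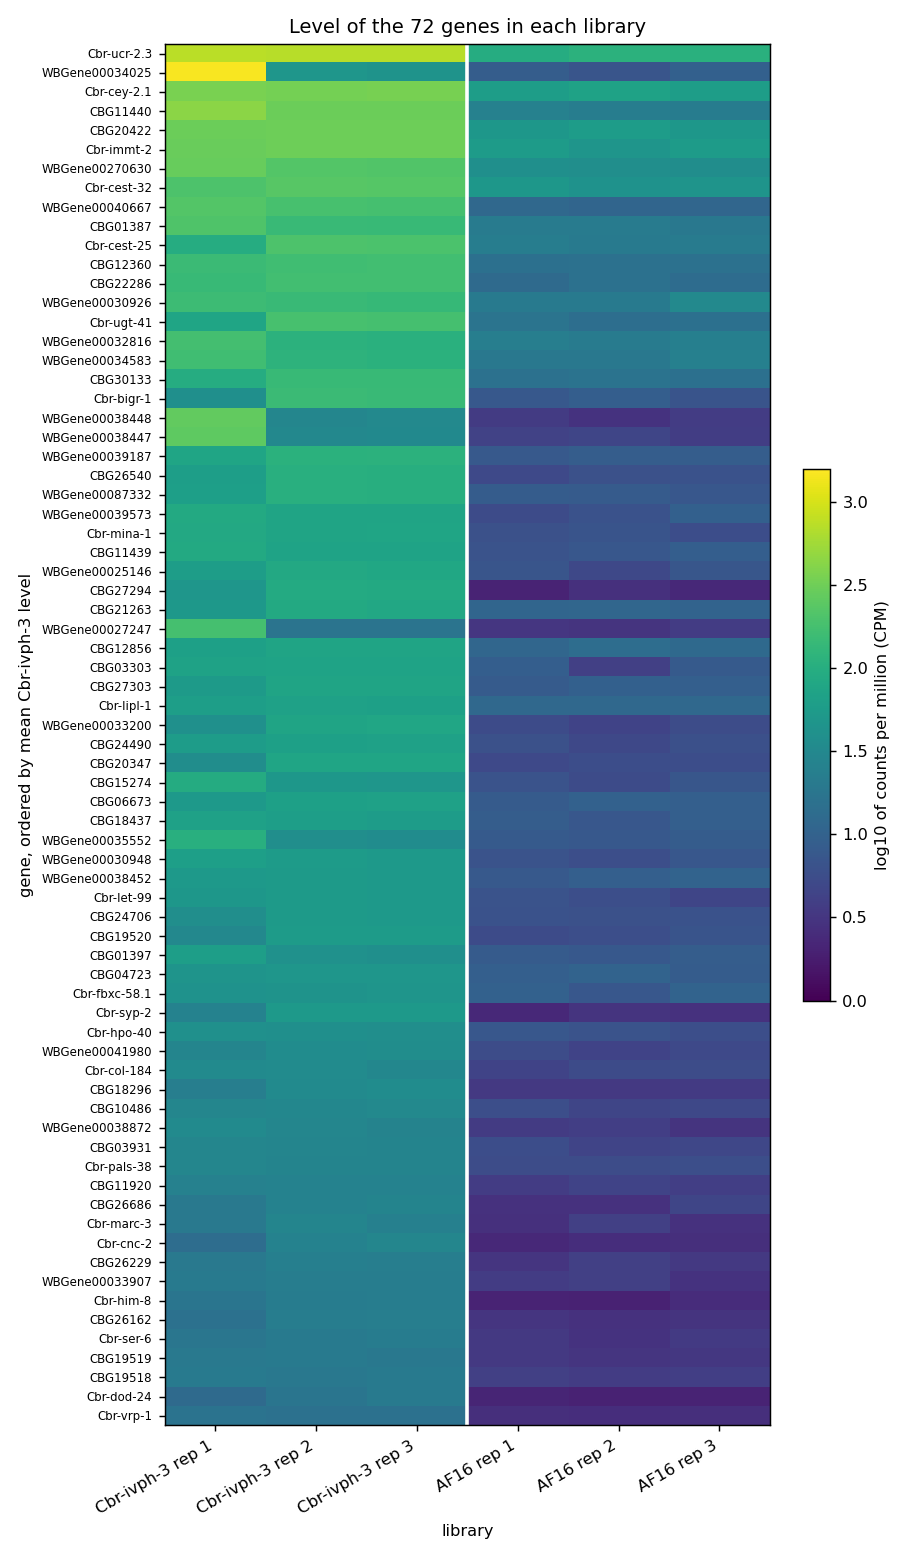
Level of each of the 72 genes (rows, ordered by mean Cbr-ivph-3 level) in the 3 Cbr-ivph-3 libraries and the 3 AF16 libraries (columns), as log10 of CPM on a colour scale. Every row is brighter in all 3 Cbr-ivph-3 columns than in any AF16 column, and a few rows, such as WBGene00034025 at 1463 CPM, are brightest in Cbr-ivph-3 replicate 1.

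The ratio of the lowest mutant CPM to the highest AF16 CPM had a median of 5.53 and ran between 4.10 and 17.6. It was at least 8 for 11 genes, between 5 and 8 for 38 and under 5 for 23. In a fit across all 14241 tested genes with edgeR's quasi-likelihood test and TMM scaling (a scaling that assumes most genes do not change), the members had a median log2 fold change of 2.62 (1.96 to 5.74), against 0.06 over all tested genes. The fit called all 72 higher in Cbr-ivph-3 at an adjusted p under 0.05, beside 11.7% of all tested genes, and as the rule used the same contrast nothing is read from that count. By construction no member's groups overlapped. That separation, each mutant library above each AF16 library in CPM, was also found in 36.7% of all tested genes. TMM lowers mutant levels relative to library totals, so that the median log2 fold change of all tested genes was 0.06 with TMM and 0.37 with totals, and fold changes below are given on the TMM scale.

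**Figure D2:**
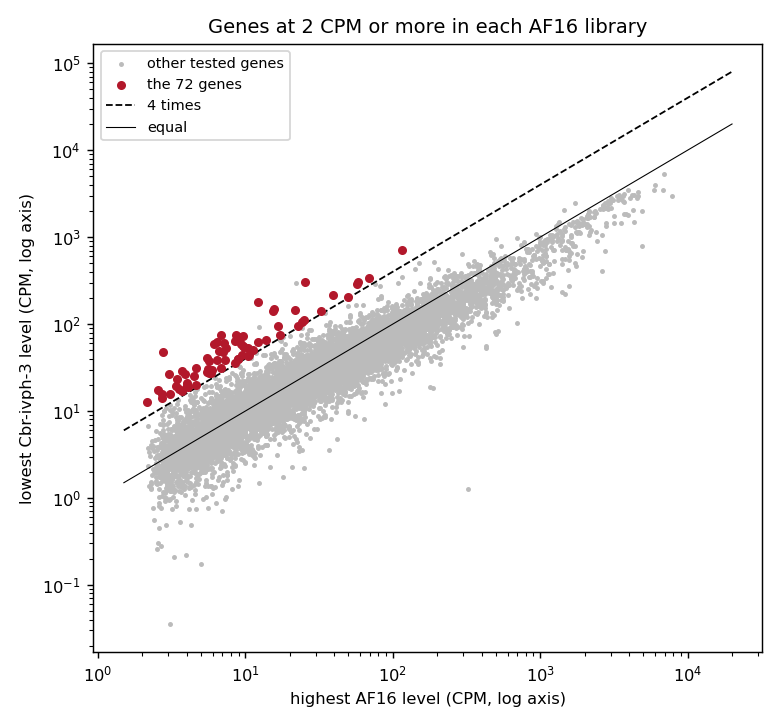
Lowest Cbr-ivph-3 CPM against highest AF16 CPM, both on log axes, for genes at 2 CPM or more in each AF16 library, with the 72 genes in red and all others in grey. The dashed line marks 4 times and the solid line equality. The 2 grey points above the dashed line are the genes left out by name, and 3 genes with a mutant library at 0 are not drawn.

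The genes nearest the limit show how gradual it is. Just inside it lay Cbr-cest-32 (ratio 4.10), Cbr-fbxc-58.1 (4.14) and Cbr-cest-25 (4.16). Just outside lay CBG30956 (3.93), CBG04827 (3.88) and WBGene00028194 (3.87). CBG30956 was at 138, 72.9 and 71.1 CPM in Cbr-ivph-3 and 18.1, 13.6 and 15.95 CPM in AF16, levels much like those of members. At the floor of 2 CPM, Cbr-him-8 and Cbr-dod-24 were inside with a lowest AF16 level of 2.02 CPM each, while Cbr-nlp-34.1, a neuropeptide-like protein gene with a ratio of 15.6, was outside at 1.98 CPM.

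Among the 72 genes, 21 have a symbol, 31 have a locus name alone and 20 have an identifier alone. The genes with a symbol are described first, by what their C. elegans counterparts do. Their values are shown by library in the plot of the genes with a symbol.

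**Figure D3:**
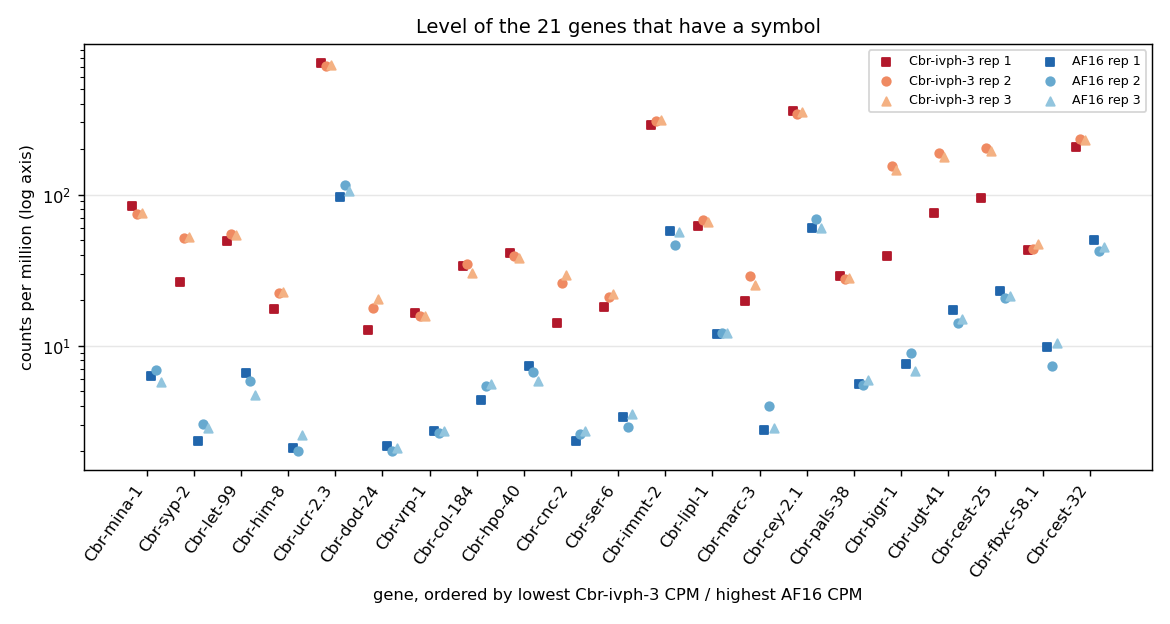
CPM (log axis) of the 21 genes with a symbol in each library, with the 3 Cbr-ivph-3 libraries in red tones to the left of the 3 AF16 libraries in blue tones for each gene. Genes run by falling ratio of lowest Cbr-ivph-3 to highest AF16 CPM. Cbr-bigr-1, Cbr-ugt-41, Cbr-cest-25, Cbr-syp-2 and Cbr-cnc-2 are lower in Cbr-ivph-3 replicate 1 than in replicates 2 and 3.

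Genes of germ cells and early embryos included the 4 highest ratios among the genes with a symbol (Cbr-mina-1, Cbr-syp-2, Cbr-let-99 and Cbr-him-8). Cbr-mina-1, whose C. elegans counterpart is an RNA-binding protein of germ cells, had the largest ratio of any gene with a symbol. It was at 84.3, 74.4 and 75.3 CPM in Cbr-ivph-3 replicates 1, 2 and 3 and 6.29, 6.87 and 5.77 CPM in AF16, a log2 fold change of 3.32 (SE 0.17). All 3 mutant libraries were close together. Cbr-syp-2, a central component of the synaptonemal complex that joins homologous chromosomes in meiosis, was at 26.6, 51.9 and 52.2 CPM in the mutant and 2.36, 3.03 and 2.86 CPM in AF16 (log2 fold change 3.65, SE 0.27). Mutant replicate 1 held 0.511 times the mean of replicates 2 and 3 and still lay far above AF16. Cbr-him-8, a zinc finger protein that binds the pairing centre of the X chromosome in C. elegans, was at 17.5, 22.3 and 22.5 CPM in the mutant and 2.11, 2.02 and 2.55 CPM in AF16 (2.90, SE 0.16). Its mutant libraries were high in replicates 2 and 3 and somewhat lower in replicate 1. Cbr-let-99, which positions the mitotic spindle in the early C. elegans embryo, was at 49.2, 55.1 and 54.1 CPM in the mutant and 6.58, 5.82 and 4.69 CPM in AF16 (2.90, SE 0.16), with little spread in the mutant. Cbr-cey-2.1, a cold-shock (Y-box) RNA-binding protein gene, was at 355, 340 and 350 CPM in Cbr-ivph-3 and 60.3, 69.0 and 59.8 CPM in AF16 (2.16, SE 0.15). It was 1 of the 3 members with the least spread in the mutant, together with Cbr-ucr-2.3 and WBGene00038452.

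Each of the 5 germline markers was higher in mutant replicate 1 than in mutant replicates 2 and 3, where 4 of the 5 lay below AF16. Among the members, Cbr-mina-1, Cbr-let-99 and Cbr-cey-2.1 were level across the mutant libraries, and Cbr-syp-2 and Cbr-him-8 were lower in replicate 1. Of the other synaptonemal complex genes with a symbol, Cbr-syp-3 was higher in the mutant at 31.1, 26.9 and 24.9 CPM, against 6.78, 7.80 and 7.24 CPM in AF16 (log2 fold change 1.62, SE 0.18, adjusted p = 0.00223, edgeR). Cbr-syp-1 was not called, at 28.3, 5.92 and 5.96 CPM in the mutant and 11.1, 8.54 and 11.7 CPM in AF16. Without mutant replicate 1 it was called lower, with a log2 fold change of -1.195 (adjusted p = 0.000183 in edgeR, the lowest over 12 alternatives that reach 0.997). Fits without that library take the mutant spread from replicates 2 and 3 alone, which were closer to each other than any AF16 pair. Calls from such fits, here and below, may therefore understate the spread between cultures. In the full fit, Cbr-syp-1 had an adjusted p of 0.911 (edgeR). Cbr-syp-4 was not called either, at 54.01, 19.9 and 19.9 CPM in the mutant and 18.1, 18.5 and 17.3 CPM in AF16 (adjusted p = 0.44, edgeR). Thus in CPM from library totals Cbr-syp-2 and Cbr-syp-3 lay above AF16 in every mutant library, whereas Cbr-syp-1 did so in replicate 1 alone. Cbr-syp-4 was above AF16 by a small margin in replicates 2 and 3. Its log2 fold change ran between -0.24 and 0.81 over 12 alternative fits, so its direction was not settled.

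Larger lists were counted over the symbols in the study's supplementary gene lists, which hold genes called in at least 1 of 3 mutants, in part from these same libraries, and which were available here only in part. Such counts are therefore not independent evidence of a direction. Of 20 tested genes of meiotic chromosomes, among them Cbr-syp-2 and Cbr-him-8, 8 rose in Cbr-ivph-3 and 12 were not called, with a median log2 fold change of 0.63, while 8 rose and 8 fell without mutant replicate 1. Of 34 germline RNA regulators, among them Cbr-cey-2.1, 11 rose and 2 fell, with a median of 0.33, and 13 rose and 17 fell without that library. Over all tested genes 11.7% rose and 9.80% fell in the full fit, against 31.1% and 28.6% without mutant replicate 1, so calls in both directions were more frequent without it. These shares stand behind the list counts given below as well, and the limit on the lists holds there too. The 3 members on these lists were higher in all 3 mutant libraries because the rule requires it, so nothing is read from that.

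A pair of mitochondrial genes gave some of the highest CPM in the group. Cbr-ucr-2.3 belongs to the core subunit family of respiratory complex III (ubiquinol-cytochrome c reductase). It was at 739, 713 and 717 CPM in Cbr-ivph-3 and 96.6, 115 and 106 CPM in AF16 (2.46, SE 0.15), the highest mean of all 72 genes and the smallest spread among mutant libraries, where the highest was 1.04 times the lowest. Cbr-immt-2 encodes a mitofilin, a protein that shapes the inner mitochondrial membrane at the base of the cristae. Its levels were 291, 308 and 312 CPM in Cbr-ivph-3 and 57.2, 46.3 and 56.3 CPM in AF16 (2.20, SE 0.13), again even across the mutant libraries.

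Other genes of the same families were lower in the mutant. Cbr-immt-1, the other mitofilin gene with a symbol, was at 91.2, 84.4 and 84.7 CPM in Cbr-ivph-3 and 241, 240 and 235 CPM in AF16, so that it fell by 1.76 on the log2 scale (SE 0.14, adjusted p = 0.000669, edgeR). The groups did not overlap. Cbr-ucr-2.1 was at 215, 158 and 168 CPM in the mutant and 320, 366 and 325 CPM in AF16 (log2 fold change -1.2, SE 0.20, adjusted p = 0.00884, edgeR), and without AF16 replicate 2 its adjusted p was 0.0509, against 4.9e-06 to 0.0509 over 12 alternatives. Cbr-ucr-1, the other core subunit gene, was at 461, 376 and 385 CPM in the mutant and 721, 770 and 750 CPM in AF16 (-1.17, SE 0.17, adjusted p = 0.00511, edgeR). Within the cold-shock family, Cbr-cey-1 was at 341, 364 and 368 CPM in the mutant and 495, 487 and 484 CPM in AF16 (-0.76, SE 0.11, adjusted p = 0.00501, edgeR), while Cbr-cey-2.2 was at 72.5, 56.2 and 56.1 CPM in the mutant and 42.5, 44.02 and 41.8 CPM in AF16 (0.23, SE 0.18, adjusted p = 0.419, edgeR). Cbr-immt-1, Cbr-ucr-2.1, Cbr-ucr-1 and Cbr-cey-1 kept a negative fold change in all 12 alternative fits, library totals included. In each of the 3 families, then, 1 gene was more than 4 times higher in every mutant library while at least 1 other gene was lower. Symbol stems of other members also held genes called lower, 7 of 15 other tested in ugt and 9 of 47 in col. There were 4 of 7 in let, 2 of 3 in ser and 1 of 5 in cest. None was called lower in syp, him, dod, cnc or lipl. The mix is therefore not particular to these 3 families. Reads shared between copies could not be examined here, since no sequence was available, and the difference between members of a family was not tested.

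**Figure D4:**
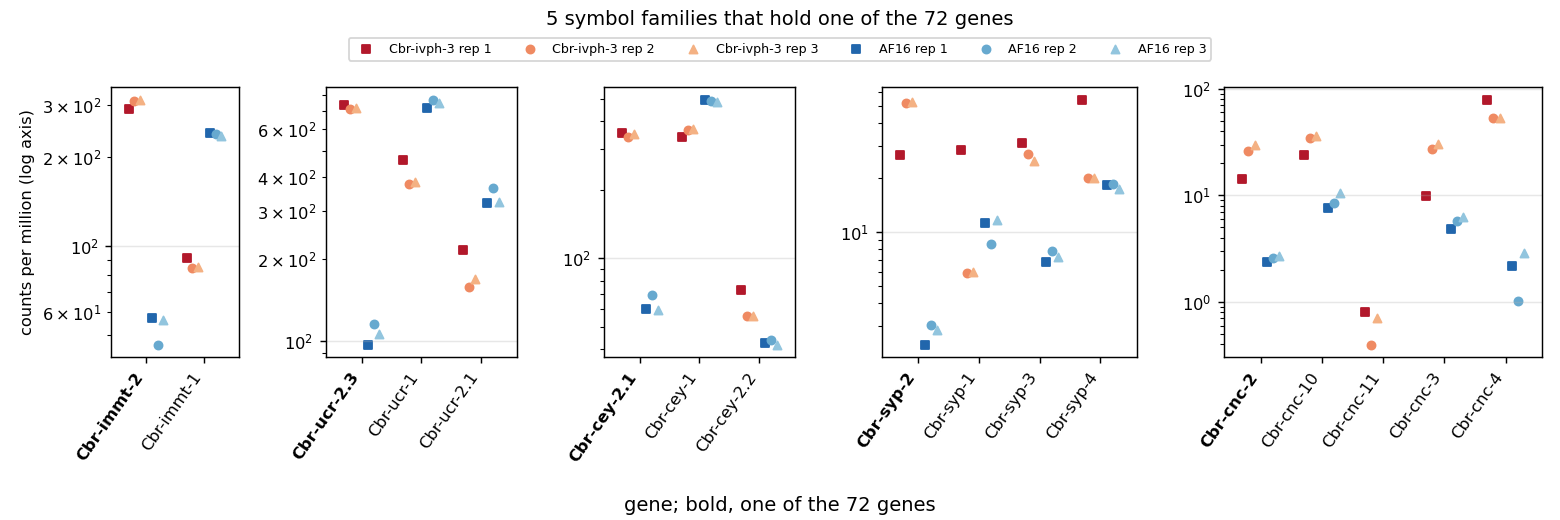
CPM (log axis, a separate scale for each panel) of 5 symbol families in each library, the gene in bold being one of the 72, with Cbr-ivph-3 libraries in red tones to the left of AF16 libraries in blue tones. Cbr-immt-2, Cbr-ucr-2.3 and Cbr-cey-2.1 are higher in Cbr-ivph-3, and Cbr-immt-1, Cbr-ucr-1, Cbr-ucr-2.1 and Cbr-cey-1 are lower. The AF16 libraries of Cbr-cnc-11 are at 0 and are not drawn.

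Genes tied to defence formed another set. Cbr-cnc-2, a caenacin (an antimicrobial peptide of the epidermis in C. elegans), was at 14.1, 25.9 and 29.6 CPM in Cbr-ivph-3 and 2.36, 2.60 and 2.71 CPM in AF16 (2.85, SE 0.26). Mutant replicate 1 was the lowest of the mutant libraries, at 0.508 times the mean of the others. Cbr-dod-24, a CUB-like domain gene known as a downstream target of DAF-16 and an immune reporter in C. elegans, was at 12.8, 17.7 and 20.4 CPM in the mutant and 2.15, 2.02 and 2.11 CPM in AF16 (2.69, SE 0.18). Cbr-pals-38 belongs to a family known in C. elegans for its response to intracellular pathogens, and was at 29.1, 27.7 and 27.9 CPM in the mutant and 5.604, 5.51 and 5.89 CPM in AF16 (2.01, SE 0.14). Unlike Cbr-cnc-2 and Cbr-dod-24, it was level across the mutant libraries. Cbr-hpo-40, named in C. elegans for hypersensitivity to pore-forming toxin, was at 40.9, 39.1 and 38.2 CPM in the mutant and 7.31, 6.68 and 5.81 CPM in AF16 (2.27, SE 0.15).

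All 4 other tested caenacin genes with a symbol were also called higher. Symbols come from the study's lists of called genes, so a caenacin gene that did not change could lack one. Their shared direction is therefore not independent evidence. Cbr-cnc-4 was at 78.9, 52.7 and 53.5 CPM in Cbr-ivph-3 and 2.19, 1.01 and 2.87 CPM in AF16 (4.65, SE 0.42, adjusted p = 0.00115, edgeR), and missed the group of 72 because AF16 replicate 2 lay under 2 CPM. Cbr-cnc-10 was at 23.9, 34.5 and 35.9 CPM in the mutant and 7.59, 8.54 and 10.5 CPM in AF16 (1.5, SE 0.18, adjusted p = 0.00276, edgeR). Cbr-cnc-3 (1.65, SE 0.37, adjusted p = 0.0238, edgeR) was called in the full fit but not in 5 of 12 alternatives (adjusted p up to 0.105), namely without any single AF16 library or without mutant replicate 2 or 3. Cbr-cnc-11 had no count in any AF16 library and at most 0.809 CPM in the mutant, so no fold is given. Over the wider list of innate immune effectors, of 51 tested genes 30 rose and 8 fell, and 37 rose and 10 fell without mutant replicate 1. Over all tested genes, 11.7% rose in the full fit and 31.1% without that library. The list holds only genes the study called in at least 1 of 3 mutants, and Cbr-cnc-2 is among the 30. Its share is therefore not comparable with that of all tested genes, and no excess is read from it.

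Several enzymes of detoxification and lipid metabolism were close to the limit of 4. Cbr-ugt-41, a UDP-glucuronosyltransferase gene of the kind that conjugates foreign compounds, was at 75.3, 187 and 178 CPM in Cbr-ivph-3 and 17.3, 14.1 and 15.1 CPM in AF16 (2.91, SE 0.31). Cbr-cest-25, a carboxylesterase gene, was at 95.3, 203 and 194 CPM in the mutant and 22.9, 20.7 and 21.2 CPM in AF16 (2.59, SE 0.25). For both, mutant replicate 1 was under 0.5 times replicates 2 and 3 and set the ratio to AF16. The second carboxylesterase gene, Cbr-cest-32, was at 205, 233 and 228 CPM in the mutant and 49.99, 42.6 and 45.3 CPM in AF16 (1.96, SE 0.12), the lowest log2 fold change of all members. Cbr-lipl-1, a lysosomal lipase gene, was at 61.7, 67.6 and 66.1 CPM in the mutant and 11.98, 12.2 and 12.1 CPM in AF16 (2.12, SE 0.11). Both groups of 3 libraries were tight. The wider lists moved in mixed directions. Of 57 tested lipid metabolism genes 10 rose, the 3 members on that list among them, and 26 fell (16 rose and 34 fell without mutant replicate 1). Of 37 detoxification enzymes 13 rose and 11 fell (20 and 13 without that library). Among the 5 other carboxylesterase genes tested, Cbr-cest-5.2 (log2 fold change 1.54, adjusted p = 0.000926, edgeR) and Cbr-cest-24 (0.66, adjusted p = 0.024, but up to 0.112 in the 5 fits without 1 library that lose the call) rose, Cbr-cest-10 fell (-1.10, adjusted p = 0.00912), and Cbr-cest-15 and Cbr-cest-28 were not called.

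The remaining genes with a symbol have no role in common. Cbr-ser-6, an octopamine receptor gene in C. elegans, was at 18.1, 21.04 and 22 CPM in Cbr-ivph-3 and 3.37, 2.91 and 3.54 CPM in AF16 (2.32, SE 0.14). Cbr-vrp-1 was at 16.4, 15.8 and 15.6 CPM in the mutant and 2.72, 2.64 and 2.71 CPM in AF16 (2.26, SE 0.15). Cbr-col-184, a cuticle collagen gene, was at 33.6, 34.9 and 30.2 CPM in the mutant and 4.39, 5.40 and 5.61 CPM in AF16 (2.37, SE 0.17). The mutant libraries were level in these genes, with replicate 1 a little low in Cbr-ser-6. Of 62 tested cuticle collagen genes 19 rose and 13 fell, and 25 rose and 28 fell without mutant replicate 1, where calls over all tested genes were more frequent too (31.1% higher and 28.6% lower). Cbr-marc-3, a membrane-bound RING-type ubiquitin ligase gene, was at 19.9, 28.8 and 25.1 CPM in the mutant and 2.76, 3.998 and 2.86 CPM in AF16 (2.61, SE 0.21). Cbr-fbxc-58.1, an F-box gene of the kind that brings substrates to a ubiquitin ligase, was at 43.1, 43.7 and 46.8 CPM in the mutant and 9.79, 7.34 and 10.4 CPM in AF16 (1.97, SE 0.16). On the list of ubiquitin ligase adaptors, which holds Cbr-fbxc-58.1, 10 of 13 tested genes rose and 1 fell, and 10 rose and 3 fell without mutant replicate 1. This list too holds only genes the study called, so no excess is read from it. Cbr-bigr-1 was at 39.2, 154 and 146 CPM in the mutant and 7.51, 8.97 and 6.80 CPM in AF16 (3.51, SE 0.48). Its mutant replicate 1 held 0.262 times the mean of replicates 2 and 3, the lowest such value among the 72 genes.

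The 3 largest ratios were in genes without a symbol. CBG27294 was at 48.4, 91.3 and 88.0 CPM in Cbr-ivph-3 and 2.11, 2.76 and 2.31 CPM in AF16, with the largest ratio of the group (17.6, log2 fold change 4.65, SE 0.26). WBGene00040667 was at 222, 188 and 180 CPM in the mutant and 12.2, 11.02 and 11.3 CPM in AF16 (ratio 14.7, log2 fold change 3.80, SE 0.18). CBG11440 was at 440, 303 and 301 CPM in the mutant and 25.4, 22.6 and 22.3 CPM in AF16 (ratio 11.9, log2 fold change 3.60, SE 0.25). Replicate 1 was the lowest mutant library for CBG27294 and the highest for the other two. CBG12360 was at 151, 166 and 168 CPM in the mutant and 15.1, 15.6 and 15.8 CPM in AF16 (ratio 9.58). CBG26540 was at 61.5, 104 and 102 CPM in the mutant and 5.12, 6.25 and 6.45 CPM in AF16 (ratio 9.54). CBG12360 was even in AF16, and the AF16 libraries of CBG26540 spread by 1.26 times.

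High levels in the mutant were also reached by genes with a smaller ratio. CBG20422 was at 301, 316 and 310 CPM in Cbr-ivph-3 and 50.1, 58.2 and 49.9 CPM in AF16 (log2 fold change 2.24, SE 0.14). WBGene00270630 was at 288, 218 and 216 CPM in the mutant and 39.1, 37.9 and 37.4 CPM in AF16 (2.36, SE 0.20). WBGene00038452, with little spread, was at 52.6, 54.9 and 52.7 CPM in the mutant and 7.84, 9.32 and 10.4 CPM in AF16 (2.23, SE 0.15). Besides these and the genes described below as neighbours or as high in replicate 1, 32 further members had mean levels of 20.6 to 160 CPM in Cbr-ivph-3 (median 62.8) and 2.98 to 24.6 CPM in AF16 (median 6.83). Their ratios ran between 4.18 and 9.16 and their log2 fold changes between 1.98 and 3.34.

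Mutant replicates 2 and 3 were within 1.2 times of each other for all 72 genes, so most of the spread within the mutant came from replicate 1. These 2 libraries were close over all genes compared (mean chi-square per gene 2.51). The share of tested genes within 1.2 times was not counted, so this closeness is not read as a trait of the members. In CPM from library totals, replicate 1 lay above both others in 27 members, below both in 43 and between them in 2. Its median log2 ratio to their mean was -0.09 in members and -0.25 over all tested genes. TMM factors were 1.02, 1.17 and 1.16 for mutant replicates 1, 2 and 3, so TMM lowers replicates 2 and 3 more. The counts above and below therefore depend on the scaling, as do the shares that follow. Replicate 1 stayed within 1.5 times the mean of replicates 2 and 3 in 51 of the 72 (70.8%), against 52.9% of all 14241 tested genes. As the rule asks for a high level in each mutant library, this share is partly set by the choice of genes. Below that range were 13 members (18.1%, against 31.8% of tested genes), among them Cbr-bigr-1, Cbr-ugt-41, Cbr-cest-25, Cbr-cnc-2, Cbr-syp-2 and CBG27294. Above it were 8 members (11.1%, against 15.4%), none of which has a symbol.

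**Figure D5:**
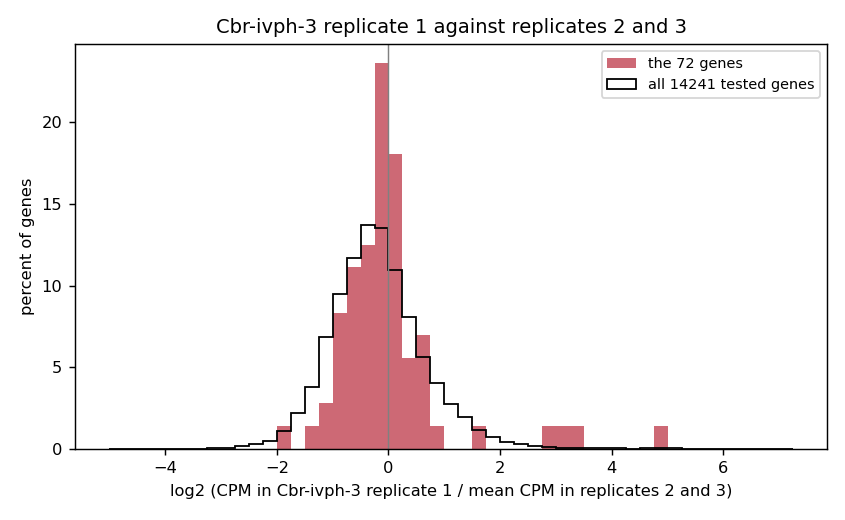
Distribution of log2 of the CPM in Cbr-ivph-3 replicate 1 over the mean CPM in Cbr-ivph-3 replicates 2 and 3, as percent of genes, for the 72 genes (filled) and all 14241 tested genes (outline). Most of the 72 genes lie near 0 (51 within 1.5 times), and 4 lie beyond 2.5 on the right.

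In 4 genes, none of them with a locus name, replicate 1 exceeded the other mutant libraries many times over. WBGene00034025 was at 1463, 48.1 and 43.8 CPM in Cbr-ivph-3 and 8.89, 7.07 and 9.55 CPM in AF16, and its log2 fold change of 5.74 had an SE of 1.60. WBGene00027247 was at 182, 16.8 and 16.8 CPM in the mutant and 3.25, 3.07 and 3.74 CPM in AF16. WBGene00038448 was at 271, 29.1 and 31.7 CPM in the mutant and 3.61, 2.95 and 3.74 CPM in AF16. Another gene, WBGene00038447, was singled out after its values were seen, at 252, 31.6 and 32.98 CPM in the mutant and 4.22, 4.62 and 3.82 CPM in AF16. Replicates 2 and 3 had levels of 16.8 to 48.1 CPM, all above AF16. The rule asks this of each mutant library, so nothing is read from these 2 libraries alone placing all 4 genes in the group. Summed markers of germline, oocyte, sperm, hypodermis, muscle and intestine, and the yolk gene, were higher in replicate 1 than in replicates 2 and 3. Those of neurons were lower. The part of these differences in the values of the 4 genes was not tested.

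Leaving mutant replicate 1 out of the rule gave 126 genes, the 72 and 54 more. A rule over fewer libraries can only keep or add genes, so nothing is read from the 72 being kept. The members' median log2 fold change was 2.56 (1.80 to 4.84) without that library and 2.62 with it. With TMM-scaled CPM in the rule, 57 genes met it and 51 of the 72 were among them, so 21 members sat close enough to the limit for scaling to decide their place.

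Of the 72 genes, 51 could be placed in the gene order of the RefSeq annotation of assembly CB4, which was used only for which genes lie next to each other. Among these, 9 genes stood in 4 runs of immediate neighbours. No such count was made over all genes, and a gene could be placed only if the identifier pairs held it. Whether 9 is many for a group of this size therefore cannot be said. Cbr-mina-1 was next to CBG24490, which was at 59.2, 66.6 and 67.03 CPM in Cbr-ivph-3 and 6.13, 5.01 and 6.05 CPM in AF16 (log2 fold change 3.18, SE 0.13), and the mutant libraries of both genes were level. CBG11440 was next to CBG11439, at 88.8, 71.1 and 71.0 CPM in the mutant and 6.58, 7.49 and 9.07 CPM in AF16 (3.02, SE 0.22), and both were highest in mutant replicate 1. CBG01397, at 62.4, 41.9 and 39.5 CPM in the mutant and 8.20, 7.53 and 8.91 CPM in AF16 (2.26, SE 0.26), was next to CBG01387. CBG01387 stood at 210, 148 and 145 CPM in the mutant and 21.5, 21.7 and 19.0 CPM in AF16 (2.72, SE 0.24), so here too the pair was highest in replicate 1.

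The longest run had 3 genes. CBG19520 was at 30.9, 57.1 and 56.4 CPM in Cbr-ivph-3 and 5.44, 5.94 and 6.80 CPM in AF16 (2.65, SE 0.23). CBG19519 was at 19.7, 20.9 and 19.3 CPM in the mutant and 3.41, 3.14 and 3.30 CPM in AF16 (2.29, SE 0.14). CBG19518 was at 20.6, 18.8 and 20.02 CPM in the mutant and 4.06, 3.73 and 3.90 CPM in AF16 (2.04, SE 0.15). Replicate 1 was low in CBG19520 and level with the others in its neighbours. A few flanking genes could be matched to the counts, mostly those on the study's lists of called genes, so they are no fair sample of flanks. Cbr-stdh-1, beside CBG11440, was at 18.5, 21.5 and 21.3 CPM in the mutant and 6.09, 6.64 and 5.25 CPM in AF16 (1.45, SE 0.15, adjusted p = 0.00172, edgeR). CBG11438, beside CBG11439, was at 19.4, 9.60 and 8.81 CPM in the mutant and 3.49, 2.37 and 4.02 CPM in AF16 (1.67, SE 0.41, adjusted p = 0.0319, edgeR). Near CBG01387, the nuclear hormone receptor gene Cbr-nhr-16 was at 15.2, 13.3 and 13.7 CPM in the mutant and 6.21, 3.73 and 5.81 CPM in AF16 (1.12, SE 0.22, adjusted p = 0.0155, edgeR). These 3 flanking genes were higher in each mutant library than in each AF16 library and did not reach the ratio of 4. Beside CBG01387, CBG01396 was at 8.16, 2.98 and 2.69 CPM in the mutant and 0.203, 0 and 0.0796 CPM in AF16 (adjusted p = 0.00865, edgeR, and up to 0.0566 over 12 alternatives, without AF16 replicate 3). CBG01398, near CBG01397, was at 5.45, 9.77 and 8.81 CPM in the mutant and 0.893, 1.51 and 1.35 CPM in AF16 (2.34, SE 0.29, adjusted p = 0.00324, edgeR). Neither could be among the 72 genes, since both lay under the AF16 floor of 2 CPM. The calls of CBG11438 and Cbr-nhr-16 were lost whenever 1 AF16 library was left out (adjusted p up to 0.137 and 0.0651 over 12 alternatives, edgeR), and that of Cbr-stdh-1 held in all 12. The library kit does not mark strand, so where neighbouring genes overlap their reads cannot be told apart.

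Of the 51 placed members, 6 were on the chromosome of the mutated gene, and 2 of these lay near it. The share of all genes on that chromosome, or as near, was not counted, so no excess is read from these numbers. Cbr-vrp-1 and Cbr-ser-6, which have 4 annotated genes between them, were separated from Cbr-ivph-3 by 14 and 19 annotated genes, and the next nearest member, Cbr-dod-24, by 139. Only 1 strain carries the mutation here, so strain differences linked to the mutated gene and the mutation itself cannot be told apart for this pair.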

How the data were processed

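Whole L3 hermaphrodites were profiled by paired-end RNA sequencing (TruSeq RNA Sample Preparation Kit v2). The authors made the deposited counts, raw read pairs per gene, with RNA STAR (WS279 genome) and featureCounts, with MultiQC for quality; no versions are given in the sources used here. They set featureCounts to reverse-stranded although the kit does not mark strand. The per-library tables hold the same counts as the combined table, and no column was left unused.

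Counts were divided by library totals (22817581 to 30865944) to give the CPM of the selection rule. Differential expression was fitted with edgeR 4.0.16 in R 4.3.3 (TMM, filterByExpr, robust glmQLFit, glmQLFTest, genotype as the only term, all 6 libraries, Benjamini-Hochberg over 14241 tested genes, adjusted p under 0.05). The SE of a log2 fold change was its size over the square root of F. Tables were made with Python 3.11.15 and pandas 2.3.3. The fit was tested on simulated counts that had the spread of AF16 and no library set apart. That test therefore does not cover a library like mutant replicate 1. P-values set the difference between genotypes against a spread between these replicates that is moderated across genes. Correlations of the deviations of same-numbered libraries from their genotype means were 0.15, 0.18 and -0.07, and the libraries were treated as unpaired.

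The members and the gene lists (meiotic chromosomes, germline RNA regulators, innate immune effectors, lipid metabolism, detoxification enzymes, cuticle collagens, ubiquitin ligase adaptors) were chosen with earlier results of these data known. Lists with no member are not reported. Names came from 3900 identifier pairs in the study's supplementary gene lists (20 members with a symbol) and from RefSeq's annotation of CB4 (1 more, Cbr-hpo-40). By rule the text names every member with a symbol, the 6 others with the highest mutant mean, the 6 with the highest ratio, the 3 with the largest and the 3 with the smallest spread among mutant libraries, the 3 genes on either side of the limit, and neighbouring members. Alternatives were DESeq2 1.42.0, other scalings (RLE, upper quartile, library totals), other filters, floors of 1 and 5 CPM, fold limits of 3 and 5, a replicate block, and each library left out in turn. Gene length was not compared, because 70.8% of members had a RefSeq locus, under the 80% needed, and sequence was not used here.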

Additional observations from a re-analysis of the deposited data

How the results depend on the processing

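The rule gave 44 genes with an AF16 floor of 5 CPM and 128 with a fold limit of 3, against 72 as applied, and 73 to 126 when 1 library was left out, with 126 without Cbr-ivph-3 replicate 1. Leaving a library out can only keep or add genes. It gave 54 and 57 genes with DESeq2 size factors and with TMM in the CPM, 99 with a floor of 1 CPM and 49 with a limit of 5. Over all tested genes, 1667 were called higher by edgeR, 3297 with library totals alone, and 605 to 4497 when 1 library was left out: 605, 719 and 654 without AF16 replicates 1, 2 and 3, 935 without Cbr-ivph-3 replicate 2 or 3, and 4497 without Cbr-ivph-3 replicate 1. The calls lower shifted with scaling too, with 1395 under TMM and 646 under library totals. Members called higher were 72 in edgeR and 67 to 72 when 1 library was left out, 71 with no filter beyond 1 count, and 68 of 68 with an adjusted p in DESeq2. The members that lost a call were WBGene00034025, WBGene00027247, WBGene00035552, WBGene00038447 and WBGene00038448, all high in Cbr-ivph-3 replicate 1.

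With the replicate number as a block, 1236 genes and 70 of the 72 members were called higher. The numbers pair no libraries by the labels, and the correlations of deviations differed in sign. Log2 fold changes of the 21 members with a symbol kept their sign in all 210 values over 10 alternative fits (1.82 to 3.98); 22 of these moved by more than the spread between replicates and 0 reversed. At 3 libraries a genotype, with 1 mutant library apart, the spread between libraries limits the precision of a fold change, and at the lowest member count of 52 counting error adds to it.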
